A study of Canis lupus familiaris with 30 samples.

Results

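ENSCAFG00000019985, ENSCAFG00000006046, ENSCAFG00000002040, ENSCAFG00000032454 and ENSCAFG00000018381 are 5 dog genes of the 18582 in the deposited table. They were chosen by their deposited counts and fold changes: each had more counts in cancer-associated stroma (CAS) than in matched normal stroma in every one of 15 dogs. The genes are given by Ensembl ID, since the files do not pair IDs with names and 0 of the 18582 IDs matched the dog gene table used for reference. What the genes do is therefore not described. RNA had been taken from 15 female dogs with simple mammary carcinoma (mCA), 1 CAS and 1 normal stroma library per dog. The tumours had arisen spontaneously, had been removed by surgery and had been fixed in formalin and embedded in paraffin. The labels name no treatment. Areas of stroma were cut out by laser-capture microdissection (LCM), in which a pathologist chose each area on the section and a laser lifted it off. Normal stroma came from the same slides, away from the tumour. A group is thus a mixture of cell types from pet dogs of many breeds, aged 4 to 14 years at surgery, and no marker of a cell type could be checked without gene names. Samples had been stored for 3 to 27 months. The labels marked 6 dogs as neutered, and the other 9 carried no such note and are listed simply as female in the study's case overview. The carcinoma was tubular in 8 dogs, tubulo-papillary in 3, cystic-papillary in 2, tubular-solid in 1 and cribriform in 1. Dogs are named by the numbers in the labels.

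CAS is the tissue between and around carcinoma cells. It holds fibroblasts, many of which turn into contractile, matrix-producing myofibroblasts, together with immune cells, vessels and extracellular matrix. Genes that mark such activated stroma in mammary tumours typically encode matrix proteins, matrix-cleaving enzymes and secreted factors, and they are usually scarce in resting mammary stroma. Levels of the 5 genes were not compared with each other, since a count also depends on transcript length.

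The CAS libraries held 1361951 to 5572761 counts each, and those of normal stroma 29284 to 3932370. The normal stroma libraries of dogs 128 (29284 counts) and 136 (32528 counts) were far shallower than the rest, of which the lowest held 617177. A count of 0 still allows up to 3 counts, which in these 2 libraries corresponds to a normalised level of 41.2 and 49.0 CPM (the count scaled to library size) and in the other 13 normal stroma libraries to at most 5.32 CPM. Such limits cover counting error only.

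All 5 genes had low counts or none in most normal stroma libraries, whereas their median count in CAS was between 90 and 2779. Of the 75 values in normal stroma (5 genes in 15 dogs), 37 were 0, 11 were 1 to 3 counts and 27 were above 3 counts. Of the 37 zeros, 9 came from the shallow libraries of dogs 128 and 136. In the normal stroma of dogs 128, 131 and 134 no count of any of the 5 genes was found, whereas all 5 had counts in that of dogs 121, 135 and 139. The genes were therefore not uniformly silent in normal stroma. In tissue samples of this kind, fewer cells that express a gene and less RNA per cell cannot be told apart.

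The direction was the criterion of choice and is given as a description without a test. In the whole table, 908 of the 10472 genes with sufficient counts (8.67%) were higher in CAS by deposited count in all 15 dogs. The CAS library was the deeper one in 12 of the 15 dogs, so the normalised level is the stricter measure. By TMM-normalised level, 116 genes (1.11%) were higher in all 15 dogs, the 5 among them. With edgeR, 267 of the 10472 genes (2.55%) were called higher in CAS, which required a false discovery rate (FDR) under 0.01 and more than a 2-fold difference. The call was part of how the 5 genes were chosen, and nothing is read from it. The 5 genes had the highest log2 fold changes of the 86 called genes that were higher in every dog. The lowest of them, ENSCAFG00000018381, had a log2 fold change of 4.81 and the next gene in that order, ENSCAFG00000014403, one of 4.65.

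**Figure D1:**
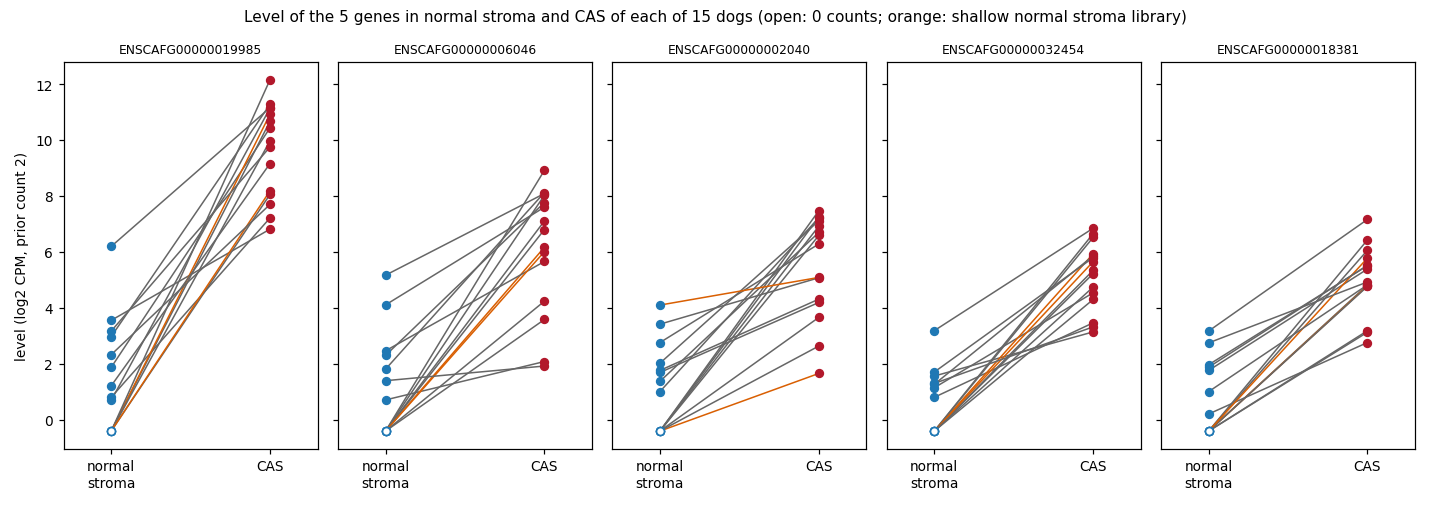
Level of each gene (log2 CPM with a prior count of 2, y axis) in normal stroma (blue) and CAS (red) of 15 dogs, with a line joining the libraries of a dog. Open circles mark 0 counts and orange lines the dogs with shallow normal stroma libraries. Every line goes up, and the lowest CAS level lies above the highest normal stroma level only for ENSCAFG00000019985.

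ENSCAFG00000019985 was the only one of the 5 whose groups did not overlap, a pattern found for 9 of the 10472 genes (0.0859%). Its level in CAS was lowest in dog 121 (112 CPM), had a median of 1005 CPM and was highest in dog 131 (4574 CPM). In normal stroma it was 0 in 6 libraries, had a median of 0.984 CPM and reached 72.4 CPM in dog 135. That library stood apart, since the second highest level was 10.9 CPM in dog 121. Over the 8 dogs with more than 3 counts in normal stroma, CAS was between 10.2-fold (dog 121) and 478-fold (dog 126) higher. Among the deeper libraries at 0, CAS was at least 53.8-fold higher in dog 132 and at least 1560-fold higher in dog 127. The log2 fold change of this gene depended on dog 135. It was 7.23 (SE 0.892) over all dogs 10.1 when both libraries of dog 135 were left out and 8.02 without dog 130.

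ENSCAFG00000006046 varied most between dogs. Its CAS level was 3.02 CPM (10 counts) in dog 138 and 3.46 CPM (28 counts) in dog 121, with a median of 110.4 CPM and a maximum of 482 CPM in dog 127. Normal stroma had a median of 0 CPM and a maximum of 35.1 CPM (41 counts) in dog 109, followed by 16.4 CPM (34 counts) in dog 126. The groups overlapped, as 4 CAS libraries lay below the highest normal stroma library. In dog 138 the CAS level was 1.62-fold that of normal stroma, 10 against 6 counts, and lay below the upper 95% limit (exact Poisson) of the normal stroma level. In dog 139, CAS was 52.1-fold higher, and in dog 127, where normal stroma had 0 counts, at least 461-fold higher. Its log2 fold change was 6.99 (SE 1.09) in edgeR with surrogate variables. It was 5.01 without dog 136, whose normal stroma library was shallow, and 4.93 without the normal stroma libraries of dogs 128 and 136. It was 4.90 without surrogate variables, 5.15 with the dog as a block in their place and 5.12 in DESeq2 with the same surrogate variables. Leaving out dog 121, 123, 127, 138 or 139 also lowered it by more than 1.5-fold, to between 5.95 and 6.37.

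ENSCAFG00000002040 had 2.38 CPM in CAS of dog 128, a median of 76.9 CPM and a maximum of 176 CPM in dog 131. In normal stroma the median was 1.25 CPM. Its maximum of 16.3 CPM came from a single count in the shallow library of dog 136, and the highest of the deeper libraries was dog 135 with 9.89 CPM (25 counts). CAS was 3.32-fold higher in dog 135 and 12.8-fold higher in dog 109, the extremes among the 4 dogs with more than 3 counts in normal stroma. In dog 127, with 0 counts in normal stroma, it was at least 144-fold higher. The log2 fold change was 5.07 (SE 0.736), and 6.16 without dog 135. In dogs 128 and 136 the CAS level was at or under what 3 counts would give in the normal stroma library, so that a higher level in CAS was not detectable at that depth.

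ENSCAFG00000032454 was more even across dogs. CAS levels were between 8.03 CPM in dog 121 and 114 CPM in dog 135, with a median of 39.7 CPM. Normal stroma was at 0 in 8 libraries and highest in dog 135, at 8.30 CPM (21 counts). Only 1 CAS library, that of dog 121, lay below this value. The ratio of CAS to normal stroma was lowest in dog 121 (3.67-fold) and highest in dog 139 (21.9-fold) over the 4 dogs with more than 3 counts in normal stroma. In dog 127, with 0 counts in normal stroma, CAS was at least 95.2-fold higher. Dog 135 had the highest level of this gene in both stromas. The log2 fold change was 5.05 (SE 0.618), and 6.14 without that dog.

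ENSCAFG00000018381 had at most 9 counts in any normal stroma library. CAS levels were between 6.00 CPM in dog 135 and 142 CPM in dog 132, with a median of 29.5 CPM. The highest normal stroma level, 8.22 CPM, was that of dog 132 as well. Over the 6 dogs with more than 3 counts in normal stroma, CAS was between 4.98-fold (dog 137) and 22.0-fold (dog 138) higher. In dog 134, with 0 counts in normal stroma, it was at least 73.1-fold higher. The log2 fold change of 4.81 (SE 0.555) was 5.44 to 6.16 when dog 121, 126, 127, 135, 138 or 139 was left out. In dog 128 the CAS level of 26.8 CPM was under the limit that the shallow library allows.

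CAS lay above the upper 95% limit of normal stroma in 69 of the 75 comparisons within dogs. The exceptions were ENSCAFG00000006046 in dog 138, ENSCAFG00000002040 and ENSCAFG00000018381 in dogs 128 and 136, and ENSCAFG00000032454 in dog 136. The limit covers the counting error of normal stroma, and that of CAS was left out. ENSCAFG00000006046 in dog 121 was only just above it, at 3.46 CPM (28 counts) against 3.16 CPM. Since the genes were chosen by direction and fold change, the choice itself favours a high number, and 69 of 75 is a description without a test. The same number is not given for other genes, so whether it is unusual among genes higher in CAS was not tested. For a count of 0 the two-sided exact limit is wider than the 3 counts per library behind the folds given as at least a value. Of the 500 counts of these genes in all normal stroma libraries together, 242 (48.4%) were in dog 135, which was also the deepest of them, and 183 of those belonged to ENSCAFG00000019985. Normalised to depth, the normal stroma of dog 135 was the highest for ENSCAFG00000019985 and ENSCAFG00000032454, the second for ENSCAFG00000002040 and the third for ENSCAFG00000006046, but only the seventh for ENSCAFG00000018381.

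Within CAS, levels differed widely between dogs. From the lowest to the highest dog, the range was 14.2-fold for ENSCAFG00000032454, 23.7-fold for ENSCAFG00000018381, 41.0-fold for ENSCAFG00000019985, 74.0-fold for ENSCAFG00000002040 and 160-fold for ENSCAFG00000006046. The SD of log2 CPM over the 15 CAS libraries was 2.23 for ENSCAFG00000006046, 1.84 for ENSCAFG00000002040, 1.68 for ENSCAFG00000019985, 1.23 for ENSCAFG00000018381 and 1.21 for ENSCAFG00000032454. The median SD over all 10472 genes was 0.62, and the 5 genes stood at percentile 91.1 or above. The smallest CAS count was 429 for ENSCAFG00000019985 and between 8 and 25 for the other 4 genes, whose low libraries are thus less precise. Certain dogs were high or low for several genes. Dog 123 was among the 5 lowest dogs for all 5 genes, and dogs 121 and 137 for 4. Dog 139 was among the 5 highest for 4 genes, and dogs 109, 127, 131 and 132 for 3. A higher TMM scaling factor lowers every CPM of a library. Among CAS libraries this factor was highest in dogs 123 (1.57), 121 (1.47) and 137 (1.17) and lowest in dog 131 (0.646). Dogs 127 and 139, high for several genes, had factors of 1.10 and 1.09. The part of scaling in these shared levels was not tested. Some dogs were mixed: dog 132 had the highest level of ENSCAFG00000018381 but ranked low for ENSCAFG00000019985 (265 CPM), and dog 135 had the highest ENSCAFG00000032454 with the lowest ENSCAFG00000018381.

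**Figure D2:**
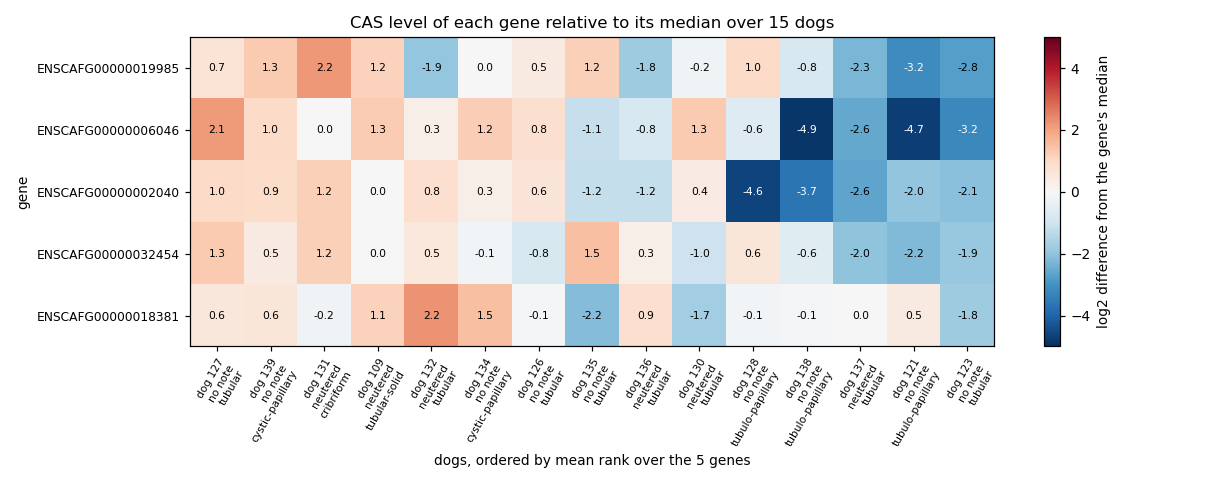
CAS level of each gene (rows) in each dog (columns), as the log2 difference from the median of that gene over 15 dogs, with dogs ordered by their mean rank. The right-hand dogs 121, 123 and 137 are low for most genes, and the lowest cells are ENSCAFG00000006046 in dogs 138 and 121 and ENSCAFG00000002040 in dog 128.

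To see whether the genes varied together, log2 CPM was correlated over the 15 CAS libraries for all 10 pairs (two-sided permutation tests, Benjamini-Hochberg adjustment over the 10 pairs). These and all later p values measure the spread between dogs. ENSCAFG00000019985 and ENSCAFG00000032454 rose and fell together, with a Spearman rho of 0.73 (p = 0.00303, adjusted p = 0.0209, permutation test) and a Pearson r of 0.74 (p = 0.00214, adjusted p = 0.0110, permutation test). The second such pair was ENSCAFG00000006046 and ENSCAFG00000002040, with a rho of 0.71 (p = 0.00418, adjusted p = 0.0209, permutation test) and an r of 0.74 (p = 0.00221, adjusted p = 0.0110, permutation test). For ENSCAFG00000019985 with ENSCAFG00000006046, r was 0.64 (p = 0.0107, adjusted p = 0.0357, permutation test) but rho only 0.49 (p = 0.0639, adjusted p = 0.204, permutation test). The other 7 pairs did not pass by either measure. Their rho was between -0.13 and 0.46, with adjusted p from 0.204 to 0.934 (permutation test), and their r was between -0.07 and 0.57, with adjusted p from 0.0663 to 0.799 (permutation test). ENSCAFG00000018381 had the weakest relations, with a rho of -0.13 to ENSCAFG00000019985, 0.025 to ENSCAFG00000032454, 0.27 to ENSCAFG00000002040 and 0.33 to ENSCAFG00000006046.

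The pairs were recomputed with dogs left out. Leaving out the 2 dogs farthest from the median of the first gene, r was 0.57 for ENSCAFG00000019985 and ENSCAFG00000032454 without dogs 121 and 123 (p = 0.0423, permutation test, 13 dogs). It was 0.69 for ENSCAFG00000006046 and ENSCAFG00000002040 without dogs 121 and 138 (p = 0.00894, permutation test, 13 dogs). ENSCAFG00000002040 and ENSCAFG00000032454 had not passed over all dogs. Without dogs 128 and 138, their r was 0.64 (p = 0.0209, permutation test, 13 dogs). The remaining pairs had p of 0.111 or more for r (permutation test). These p values of r are unadjusted, so they do not show that a pair passed. By Spearman rho with adjustment over the 10 pairs, no pair passed in this reduced set (adjusted p of 0.121 or more, permutation test). The r of 0.64 between ENSCAFG00000019985 and ENSCAFG00000006046 was 0.41 without dogs 121 and 123 (p = 0.161, permutation test), so that this relation rested on those dogs. When each dog was left out in turn, rho of the first pair was between 0.67 and 0.82 and its adjusted p stayed below 0.05 in 12 of 15 cases, with a maximum of 0.0565 without dog 135 (permutation test). For the second pair, rho was between 0.67 and 0.76 and the adjusted p stayed below 0.05 in 9 of 15 cases, also with a maximum of 0.0565 without dog 135 (permutation test). For the log2 difference between CAS and normal stroma within a dog, rho was 0.88 for the first pair and 0.45 for the second. It was 0.66 for ENSCAFG00000019985 and ENSCAFG00000018381, unrelated in CAS alone. These differences share the depth of the normal stroma library and are given without a test.

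These relations were set beside those with all other genes, because the libraries share a scaling. The median rho of ENSCAFG00000019985 with the other 10471 genes was -0.03 and 95% of them were below 0.56. ENSCAFG00000032454 stood at percentile 99.1 of that list. Among the genes ranked by their rho with ENSCAFG00000006046 (median -0.04), ENSCAFG00000002040 stood at percentile 99.2. Still, 146 genes had a rho above 0.7 with ENSCAFG00000019985, 90 with ENSCAFG00000006046, 114 with ENSCAFG00000002040, 162 with ENSCAFG00000032454 and 41 with ENSCAFG00000018381, so the partner genes were not the closest. No gene of the 5 was among the 2 most alike genes of another. Over the 15 CAS libraries, ENSCAFG00000019985 was closest to ENSCAFG00000008101 and ENSCAFG00000014345 (rho 0.94 for both), ENSCAFG00000006046 to ENSCAFG00000013329 (0.86) and ENSCAFG00000002528 (0.85), and ENSCAFG00000002040 to ENSCAFG00000010071 (0.93) and ENSCAFG00000010394 (0.85). ENSCAFG00000032454 was closest to ENSCAFG00000017257 (0.93) and ENSCAFG00000008467 (0.92), and ENSCAFG00000018381 to ENSCAFG00000003147 (0.89) and ENSCAFG00000007343 (0.86). Of these 10 genes, the 6 nearest to the first 3 genes and ENSCAFG00000008467 were among the 267 genes called higher in CAS (2.55% of 10472). ENSCAFG00000017257, the gene closest to ENSCAFG00000032454, and both genes closest to ENSCAFG00000018381 were not called.

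**Figure D3:**
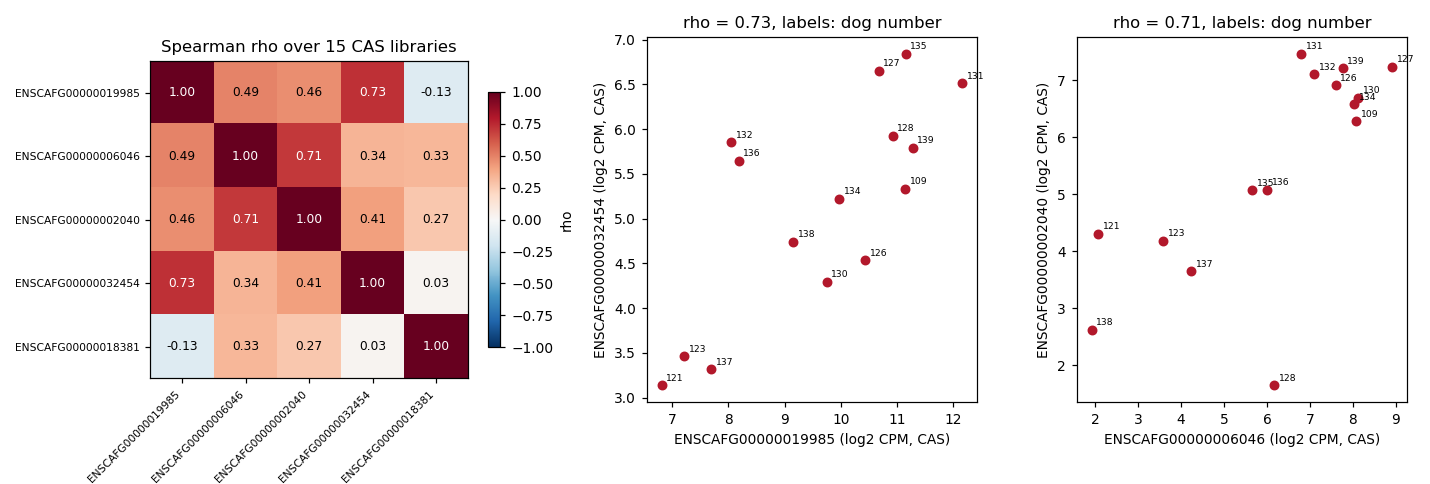
Left, Spearman rho between the 5 genes over 15 CAS libraries. Middle and right, log2 CPM of the pairs with rho 0.73 and 0.71, where each point is the CAS library of the dog with that number. Dogs 121, 123 and 137 lie at the low end of both pairs.

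The relation to neuter status was tested in CAS. The choice of the genes did not use the neuter label, but it did use the CAS counts of every dog. Of 11634 genes, 0 (0%) differed between the 6 neutered dogs and the 9 others at an FDR below 0.05 in edgeR's quasi-likelihood test, with 557 at an unadjusted p below 0.05 and 0 at that FDR in DESeq2. All 5 genes were among those that did not pass, and the groups overlapped for each. ENSCAFG00000018381 had a median of 41.8 CPM in neutered dogs (8.30 to 142) and of 27.5 CPM in the others (6.00 to 85.4). Its log2 difference, neutered minus other dogs, was 0.65 (SE 0.534, 95% interval -0.47 to 1.77, adjusted p = 0.970). ENSCAFG00000002040 had a median of 89.8 CPM in neutered dogs (11.8 to 176) and of 32.8 CPM in the others (2.38 to 150), a log2 difference of 0.44 (SE 0.726, 95% interval -1.08 to 1.97, adjusted p = 0.981). For 4 of the 5 genes, ENSCAFG00000018381 being the exception, the interval includes a 2-fold difference in either direction.

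For the other 3 genes the edgeR estimate by neuter label was small beside its interval. ENSCAFG00000006046 had medians of 124 CPM (18.1 to 278) in neutered and 70.9 CPM (3.02 to 482) in other dogs, with a log2 difference of 0.02 (95% interval -1.78 to 1.82). The difference of its mean log2 CPM, in which low dogs weigh more, was 0.98. ENSCAFG00000032454 had medians of 44.5 and 36.5 CPM and a log2 difference of -0.12 (95% interval -1.29 to 1.04). ENSCAFG00000019985 had medians of 576 CPM (207 to 4574) in neutered and 1385 CPM (112 to 2484) in other dogs, and its log2 difference was 0.13 (95% interval -1.38 to 1.65) in edgeR but -0.24 as a difference of mean log2 CPM. The sign also differed for ENSCAFG00000032454, whose difference of mean log2 CPM was 0.02, so that no direction is given for either gene. Exact permutation tests of mean log2 CPM gave p from 0.344 to 0.982 over the 5 genes, the smallest being that of ENSCAFG00000002040.

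Carcinoma subtype was tested in the same way. Between the 8 tubular carcinomas and the 7 of other subtypes, 0 of 11322 genes (0%) differed at an FDR below 0.05 in edgeR, with 371 at an unadjusted p below 0.05 and 2 at that FDR in DESeq2, which were not among the 5. ENSCAFG00000019985 had the widest gap. Its median was 576 CPM in tubular carcinoma (148 to 2285) and 1943 CPM in the others (112 to 4574), a log2 difference, tubular minus other, of -1.06 (SE 0.664, 95% interval -2.46 to 0.33, adjusted p = 0.999). Only 1 of the 8 tubular carcinomas lay above the median of the others, but the groups overlapped and the exact permutation test of mean log2 CPM gave p = 0.230. ENSCAFG00000018381 had medians of 28.5 CPM (6.00 to 142) in tubular and 41.0 CPM (26.4 to 85.4) in other carcinomas, with a log2 difference of -0.19 (95% interval -1.34 to 0.97). Its 3 lowest dogs, 123, 130 and 135, all had tubular carcinomas. The log2 differences of the other 3 genes were 0.20 for ENSCAFG00000006046 (95% interval -1.56 to 1.97), 0.02 for ENSCAFG00000002040 (95% interval -1.50 to 1.54) and 0.10 for ENSCAFG00000032454 (95% interval -1.03 to 1.23). As a difference of mean log2 CPM, the last was -0.16. Within the other subtypes, the 3 tubulo-papillary carcinomas had the 3 lowest levels of ENSCAFG00000006046 (3.02, 3.46 and 70.9 CPM) and of ENSCAFG00000002040 (2.38, 5.43 and 19.0 CPM). The 2 cystic-papillary ones had 216 and 259.9 CPM of the former and 95.2 and 147.9 CPM of the latter. These subtypes were singled out after the values were seen and were not tested.

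**Figure D4:**
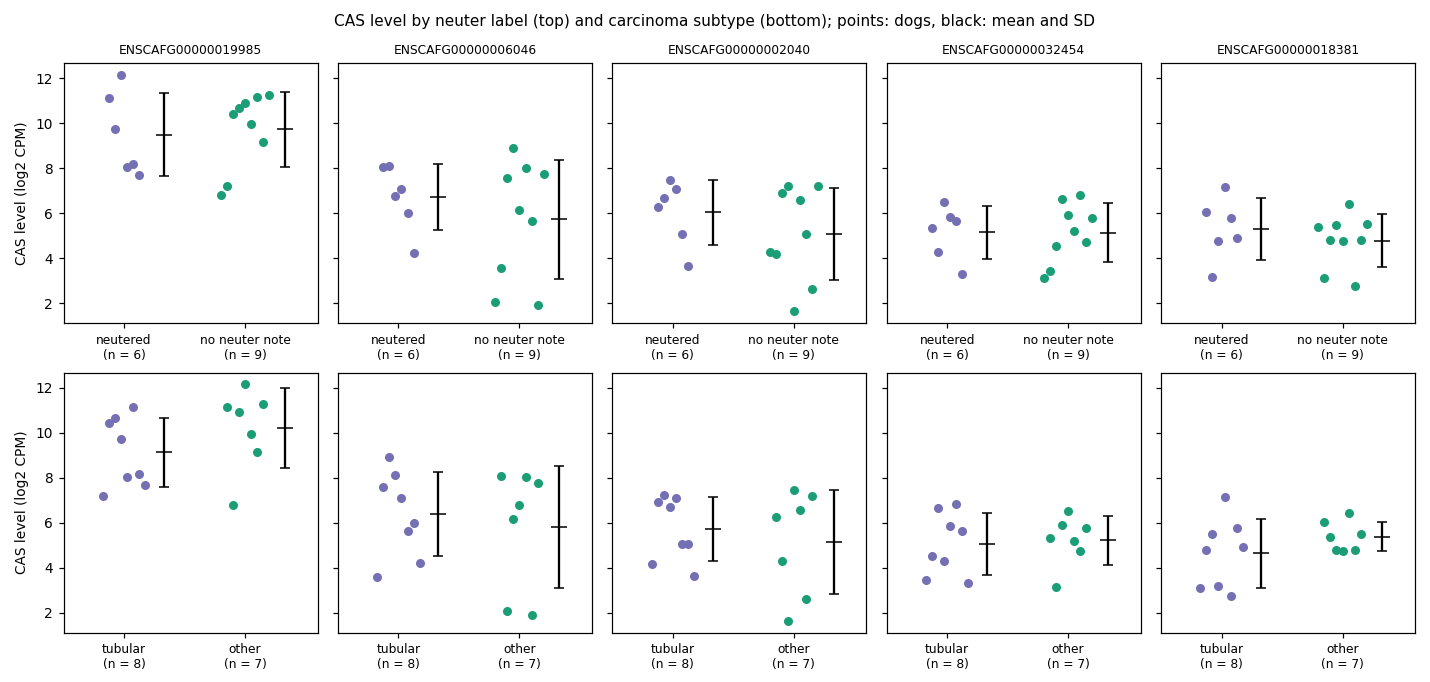
CAS level (log2 CPM, y axis) of each gene by neuter label (top row, 6 against 9 dogs) and by subtype (bottom row, 8 tubular against 7 other carcinomas). Points are dogs and the black bars give mean and SD. The groups overlap in every panel, and the widest gap of means is that of ENSCAFG00000019985 by subtype.

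The difference between CAS and normal stroma was also compared between these groups of dogs, as an interaction with the dog as a block. The choice of the 5 genes used this difference in every dog, but not the grouping of dogs. By neuter label, 0 of 10472 genes (0%) passed an FDR of 0.05 in edgeR, with 560 at an unadjusted p below 0.05 and 3 at that FDR in DESeq2. By subtype, 0 of 10472 genes (0%) passed, with 196 at an unadjusted p below 0.05 and 0 in DESeq2. For the 5 genes, the log2 interaction by neuter label was between -0.40 (SE 0.949) for ENSCAFG00000018381 and 0.90 (SE 1.34) for ENSCAFG00000032454. By subtype it was between -1.53 (SE 1.29) for ENSCAFG00000019985 and 1.19 (SE 1.33) for ENSCAFG00000006046. All of their adjusted p values were 1. Exact permutation tests of the log2 difference within dogs gave unadjusted p of 0.129 or more, the smallest for ENSCAFG00000018381 by subtype. In normal stroma the genes were scarce, and they were not tested there by neuter label or subtype. Counts of ENSCAFG00000019985 were found in the normal stroma of 3 of 6 neutered and 6 of 9 other dogs. Those of ENSCAFG00000002040 were found in 4 of 6 and 4 of 9. Of the 6 neutered dogs 4 had tubular carcinomas, and of the 9 others 4. An association of neuter label with subtype was not tested.

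The age of the sample, that is the time from surgery to RNA extraction, and the age of the dog were related to the CAS levels in 10 further correlations (two-sided permutation tests, adjusted over the 10). ENSCAFG00000018381 was higher in older samples, with a rho of 0.74 (p = 0.00240, adjusted p = 0.0240, permutation test) and an r of 0.70 (p = 0.00379, adjusted p = 0.0379, permutation test). Its lowest levels, 6.00 and 7.97 CPM, were those of dogs 135 and 123, whose samples were 3 months old, and its highest, 142 CPM, that of dog 132, whose sample was 18 months old. Leaving out the 2 dogs farthest from the median sample age, r was 0.69 (unadjusted p = 0.00872, permutation test, 13 dogs). This p value of r was not adjusted over the 10 relations. By Spearman rho after adjustment, the relation did not pass. Without dogs 123 and 135, chosen after seeing the data, rho was 0.60 (p = 0.0337, adjusted p = 0.337, permutation test), and the relation no longer passed. Leaving out single dogs gave a rho between 0.68 and 0.81, with the adjusted p below 0.05 in 9 of 15 cases and at most 0.0963 (permutation test). Within groups, rho was 0.84 in the 9 dogs without a neuter note, 0.55 in the 6 neutered dogs, 0.87 in the 8 tubular and 0.43 in the 7 other carcinomas.

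Of all 10472 genes, 35 had a rho with sample age at or above that of ENSCAFG00000018381, itself included, and the median was -0.02. Over the 15 CAS libraries, rho between total counts and sample age was -0.01, and rho between ENSCAFG00000018381 and total counts was 0.40. The part of depth in this relation was not tested. ENSCAFG00000002040 had a rho of 0.51 with sample age (p = 0.0516, adjusted p = 0.258, permutation test) and did not pass. For the remaining 3 genes, rho with sample age was between 0.14 and 0.35. With the age of the dog, rho was between -0.31 for ENSCAFG00000018381 and 0.21 for ENSCAFG00000006046, with adjusted p of 0.653 or more (permutation test).

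**Figure D5:**
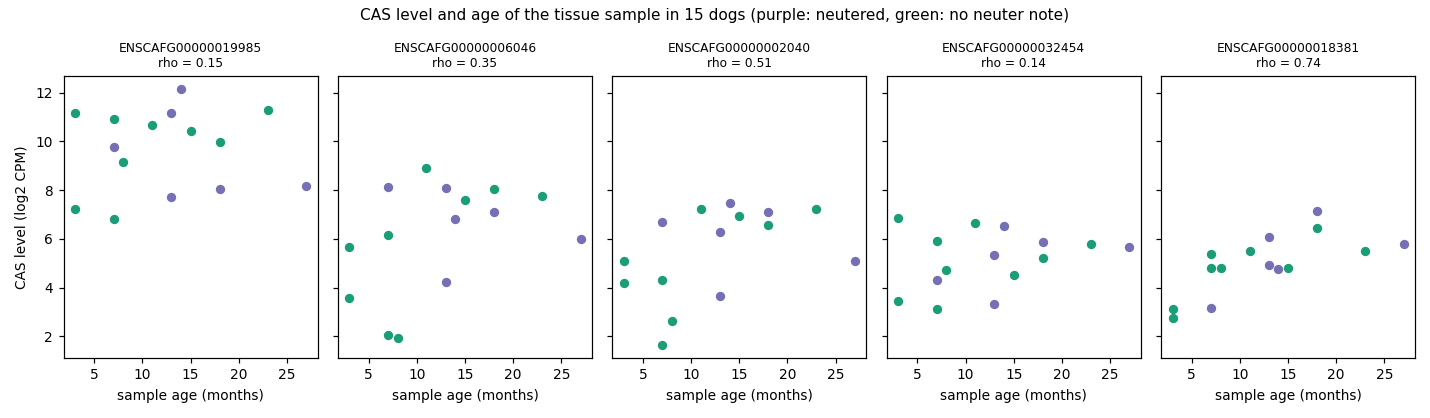
CAS level (log2 CPM, y axis) of each gene against the age of the tissue sample in months (x axis) in 15 dogs, neutered dogs in purple and the others in green. ENSCAFG00000018381, with rho 0.74, is lowest in the 2 samples of 3 months, and the other genes have rho between 0.14 and 0.51.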

How the data were processed

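RNA from 15 CAS and 15 normal stroma isolates of 15 dogs was sequenced after LCM, 1 library each. The authors ran kallisto 0.44.0 on the reads with the Ensembl CanFam3.1 transcriptome, used tximport to obtain gene totals, and deposited these estimated counts without normalisation. All values were whole numbers (0 with a fraction), and 0 columns were left out. Where a gene has a near-identical copy, kallisto splits the shared reads, and its count is uncertain. Libraries were assigned to stroma and dog, and dogs to neuter label and subtype, from the labels.

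Low genes were removed by filterByExpr and libraries scaled by TMM (edgeR 4.0.16 in R 4.3.3). The quasi-likelihood test of edgeR for CAS against normal stroma included surrogate variables from svaseq (sva 3.50.0, number set with 20 permutations), since the study's methods include SVA factors as covariates. Neuter label and subtype were tested over the 15 CAS libraries, and as interactions with the dog as a block, with Benjamini-Hochberg adjustment over all genes. The level of a gene is TMM-normalised CPM. The log2 CPM has a prior count of 2. Correlations used 100000 permutations, and tests of single genes all arrangements of dogs. The procedures were tested on simulated counts. DESeq2 1.42.0, other scaling, filters and prior counts and leaving out dogs were tried.

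Both libraries of a dog come from 1 animal, which pairs them: deviations from the group means correlated by 0.129 on average within dogs (over 0.1 in 8 of 15) and by -0.00773 between dogs. The 5 genes, and the lists and tests, were chosen with earlier results of these data known. The named genes were the 5 and, for each, the 2 genes with the highest Spearman rho over the CAS libraries. Gene lists and cell type markers that need gene names were not used here.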

Additional observations from a re-analysis of the deposited data

How the results depend on the processing

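The number of genes called higher in CAS, 267, was between 167 (without dog 138) and 289 when each dog was left out, and 173 without dog 139. Comparing the paired libraries, that is with a replicate block for the dog in place of surrogate variables, gave 302. Among the other settings, the number was lowest with neither surrogate variables nor block (258). It was highest in DESeq2 with the same surrogate variables (345), followed by 336 with all genes of at least 1 count. For the interaction by neuter label, 1 gene passed without the block and 3 in DESeq2 with it. For the interaction by subtype, 0 genes passed in edgeR with and without the block. DESeq2 gave 2 genes by subtype in CAS, and without the filter on low counts 3 passed in the interaction by subtype. None of 250 alternative values of the 5 genes by neuter label or subtype passed, where p was adjusted over all genes in the fits and unadjusted in the exact permutation tests (smallest 0.23). Leaving out each dog gave 0 genes by neuter label and 0 by subtype in CAS.

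The number of correlated pairs, 2, was 0 without the 2 dogs farthest from the median, 0 without dog 121, 135 or 137, 1 without dog 127, 136 or 138, 2 without any other dog and 3 by Pearson r. The 1 relation with sample age was lost (0) without the 2 dogs farthest from the median age, where r was 0.69 against 0.70 in all dogs. It was also lost, by choices made after seeing the data, without the 2 youngest samples and without dog 123, 128, 130, 132, 134 or 135, and remained (1) without any other dog.

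With a prior count of 0.5, the median log2 difference within dogs was 6.67 for ENSCAFG00000032454 (4.71 with 2) and 5.44 for ENSCAFG00000018381 (3.82 with 2). It was 5.30 for ENSCAFG00000002040 (4.07 with 2), 6.57 for ENSCAFG00000006046 (5.47 with 2) and 8.81 for ENSCAFG00000019985 (8.47 with 2). Over 21 alternatives, the log2 fold change between stromas ranged from 6.80 to 10.1 for ENSCAFG00000019985, 4.90 to 7.33 for ENSCAFG00000006046, 4.84 to 6.16 for ENSCAFG00000002040, 4.52 to 6.14 for ENSCAFG00000032454 and 4.56 to 6.16 for ENSCAFG00000018381. Depth limits dogs 128 and 136 most.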
